A study of Mus musculus with 6 samples.

Results

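A set of 40 genes of smooth muscle, mesangial cells, fibroblasts and the actin cytoskeleton was followed in whole kidney of 2 inbred mouse strains. They were picked by gene symbol, and all 40 were found among the 23282 rows of the table. The groups were 3 kidneys of C57BL/6 mice (B6, replicates 1 to 3) and 3 kidneys of BALB/c mice (BALB/c, replicates 1 to 3), 1 library each. The labels name no sex, age, genotype beyond strain, or treatment. The series concerns strain differences of kidney innate lymphoid cells, and these libraries serve to compare whole kidney transcripts of both strains. Levels are given as CPM, read counts scaled to library size. Folds are log2 differences, BALB/c minus B6, of log2(CPM + 1), so a negative fold means a lower level in BALB/c. The libraries were made with a 3′ end kit, which gives about 1 read per transcript, so CPM values of different genes can be set side by side without a length correction.

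Actin filaments are polymers of actin that carry tropomyosin along their grooves and are pulled by myosin II. Smooth muscle of vessels builds them from muscle isoforms such as Acta2, Myh11 and Tpm2. Mesangial cells are the contractile support cells of the glomerular capillaries. Tubule, endothelial and immune cells use cytoplasmic isoforms such as Actb, Actg1 and Myh9, while fibroblasts and pericytes around them secrete the collagen, elastin and proteoglycan matrix. Many actin and smooth muscle genes are known targets of serum response factor (SRF), which binds a short element called the CArG box, made of CC, a run of 6 A or T, and GG.

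Libraries held between 8311235 and 10416325 reads. The 45S ribosomal RNA gene Rn45s took 12.7% to 15.6% of the CPM. Xist was read in every library (104 to 193 CPM), and 3 of 4 Y-linked genes had no read, the other at most 0.774 CPM. Markers of smooth muscle, mesangium and fibroblasts were read in every library. Their summed levels were 159.6 to 198, 59.9 to 74.7 and 334 to 430.2 CPM in B6, and 96.6 to 121, 54.9 to 72.1 and 314 to 369 CPM in BALB/c. The 5 smooth muscle markers (Acta2, Tagln, Myh11, Cnn1 and Des) are all members, and the mesangial and fibroblast lists hold members too. These sums thus repeat values given below and are no independent measure of cell content. In whole tissue, fewer cells of a type and less RNA per cell cannot be told apart. Of the other cell types that the kidney holds, endothelial markers (0 of 6 called) summed to 312 to 343 CPM in B6 and 261 to 266 in BALB/c, podocyte markers to 304 to 345 and 440.4 to 476, and leukocyte markers (2 of 4 tested called, both higher) to 66.8 to 89.4 and 127 to 155. Immediate early and heat shock genes (Fos, Jun, Egr1, Atf3, Hspa1a and Hspa1b) summed to 72.6 to 115 CPM in B6 and 158 to 279 in BALB/c. Of these 6, Fos, Jun and Egr1 were called, all higher in BALB/c. The other 3 were not called, and 2 of the 6 folds were negative. The part of these shifts in the results below was not tested.

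CArG boxes were looked for in the 250 bases upstream of the start of the 31 members that RefSeq's promoter table (GRCm38.p6) holds. Actb, Actg2, Dcn, Eln, Lum, Mgp, Myh11, Pdgfrb and Tagln had no entry. The pattern of the box, though not each single box, equals its own reverse complement, so 1 search covers both strands. It was found for 5 of the 31 genes (16.1%), against 439 of all 27025 genes (1.62%), and the 5 were Actg1, Myl6, Myl7, Myl9 and Vcl. Only exact matches were counted, so a gene outside the 5 may still hold a near match. The window of Acta2, for example, holds ccctatatgg and ccttgtttgg, each 1 letter off the pattern. Near matches in the other windows were not counted. The upstream sequences of Myl7 (chr11:5898783-5899032, minus strand) and Mybpc3 (chr2:91117894-91118143, plus strand) are shown whole because each of these genes was read in 1 strain only. Shorter stretches are shown for Actg1 (chr11:120348546-120348615, minus strand), Myl9 (chr2:156775273-156775342, plus strand) and Vcl (chr14:20929148-20929210, plus strand), to set the box of an actin gene that differed beside those of 2 genes that were not called. All are printed 5′ to 3′ from the B6 reference, with the CArG box in capitals. Counted from the start site, the box begins at -61 in Myl7, -90 in Actg1, -161 in Myl9 and -227 in Vcl. The box of Myl6 lies upstream of an alternative start, and it is not shown because the stretch around it overlaps an annotated exon.
Myl7: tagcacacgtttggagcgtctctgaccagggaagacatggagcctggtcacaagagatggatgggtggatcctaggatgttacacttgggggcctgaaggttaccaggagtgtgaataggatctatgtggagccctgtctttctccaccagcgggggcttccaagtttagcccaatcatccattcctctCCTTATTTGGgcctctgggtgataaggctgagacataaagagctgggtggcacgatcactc
Mybpc3: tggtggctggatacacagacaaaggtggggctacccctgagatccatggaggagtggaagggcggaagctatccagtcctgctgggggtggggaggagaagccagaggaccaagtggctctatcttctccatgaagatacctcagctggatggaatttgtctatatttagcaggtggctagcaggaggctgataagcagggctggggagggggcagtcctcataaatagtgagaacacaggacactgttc
Actg1: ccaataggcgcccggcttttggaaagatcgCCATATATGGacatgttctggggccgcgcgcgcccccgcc
Myl9: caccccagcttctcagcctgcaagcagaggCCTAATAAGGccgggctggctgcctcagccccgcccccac
Vcl: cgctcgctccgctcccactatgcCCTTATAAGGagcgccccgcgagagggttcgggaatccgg
A match is a description of the letters in this window and does not show that SRF was bound there.

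Of the 40 members, 39 passed the filter on low levels and were tested, and the exception was the visceral smooth muscle actin gene Actg2. The strains differed in 10 of them (limma, adjusted p under 0.05), 2 higher and 8 lower in BALB/c. That is 25.6% of those tested, where 9.09% of all 13317 tested genes were called (4.17% higher and 4.93% lower). Of the 10, Tpm4, Eln, Myl7 and Mybpc3 were also at least 2-fold apart, as were 3.24% of all tested genes. The members are mostly abundant genes. Among those with a mean of at least 20 CPM, 7 of 27 were called (25.9%), 6 of them lower, against 12.8% of all 6521 tested genes at that level, of which 7.16% were called lower. Negative folds made up 31 of 39, against 49.6% of all tested genes, and the median fold was -0.24, where that of all tested genes was 0.00. Over the 27 members with a mean of at least 20 CPM the median fold was smaller, -0.11, and 74.1% of folds were negative. Mybpc3 and Myl7 passed the filter only through the strain in which they were read, so they had to differ. Without them 8 of 37 members were called (21.6%), and 30 of 37 folds were negative. For 16 of 39 members (3 higher, 13 lower) no library of 1 strain lay within the CPM range of the other. Without Mybpc3 and Myl7, which could not overlap, this held for 37.8% of 37 members (2 higher, 12 lower). It held for 25.4% of all tested genes (12.5% higher, 12.9% lower). With 1 variance prior for genes of every level, only Tpm4, Myl7 and Mybpc3 remained called of the 10. Under that setting 493 of all 13317 tested genes were called. Among the members that remained, only Tpm4 had passed the filter in both strains.

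**Figure D1:**
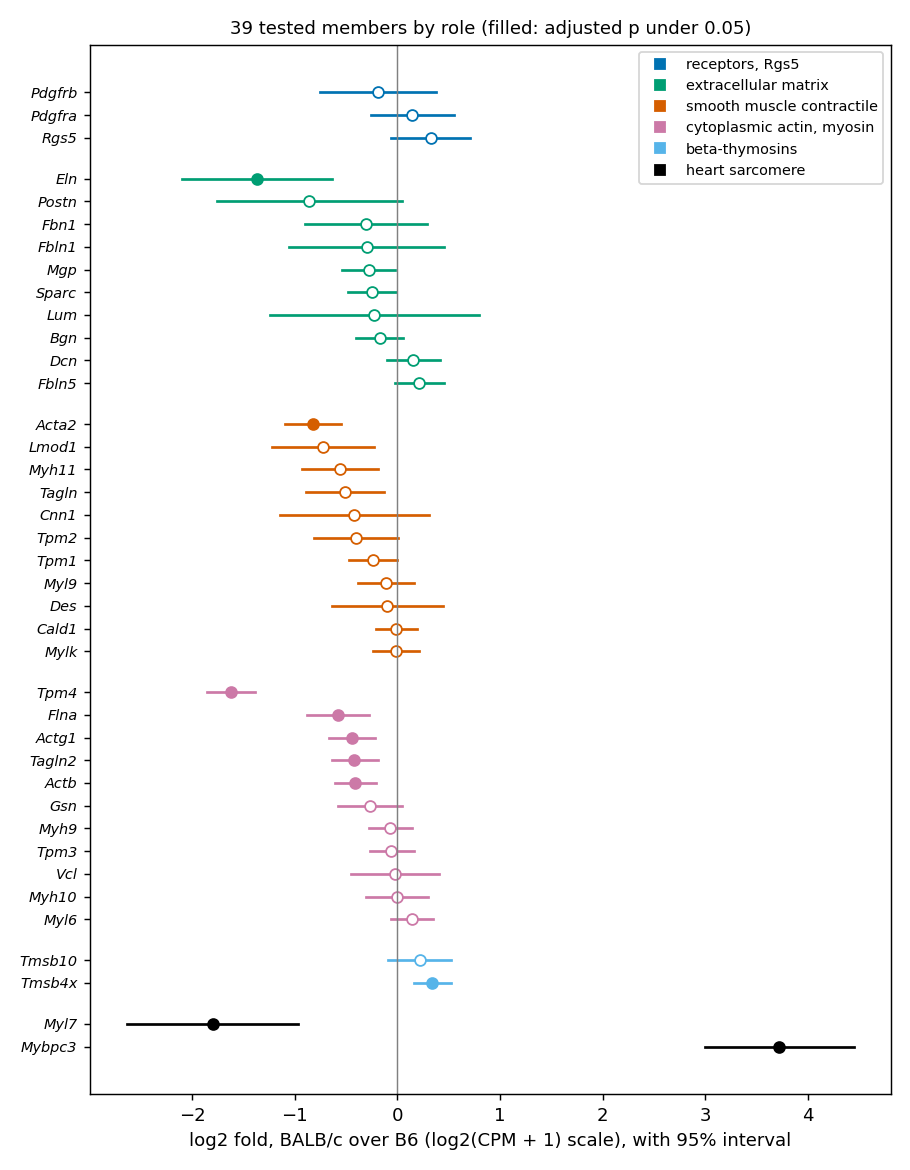
Log2 fold of BALB/c over B6 (x axis) for the 39 tested members, by role, with 95% limma intervals; filled points had an adjusted p under 0.05. All 11 tested contractile genes and 10 of 11 cytoskeletal genes lie left of 0, and Tpm4, Myl7 and Mybpc3 lie farthest from it.

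The cytoplasmic actin cytoskeleton held 5 of the 10 calls, all lower in BALB/c: Tpm4, Flna, Actg1, Tagln2 and Actb. They made up 45.5% of the 11 tested genes of this group, where 9.09% of all tested genes were called and 4.93% were called lower. All 11 had a mean of at least 20 CPM, and at that level 12.8% of tested genes were called and 7.16% were called lower. The other 6 were not called, and the group's median fold was -0.27. Tpm4 encodes a tropomyosin of non-muscle stress fibres (chromosome 8, 72134975 to 72153142, GRCm38, as for all positions below). Its level was 144, 137 and 143 CPM in the B6 libraries and 44.9, 42.2 and 48.5 CPM in the BALB/c libraries. Every BALB/c library lay at about the same low level, far below the lowest B6 library. The means were 141 ± 4.19 and 45.2 ± 3.14 CPM (SD, n = 3 each), 3.13-fold lower in BALB/c, and the log2 fold was -1.62 ± 0.11 (SE, limma adjusted p = 5.35e-10). It was called under all 17 alternatives. An exon of Tpm4 overlaps the antisense gene Gm26586. The next gene on its 3′ side, Rab8a (starting at 72161200), had 148 ± 5.46 CPM in B6 and 149 ± 3.54 in BALB/c, a log2 fold of 0.01 (limma adjusted p = 0.969).

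Actb, the beta-actin gene often used as a reference for other measurements (chromosome 5, 142903115 to 142906754), was the most abundant member. Its level was 1692, 2107 and 1874 CPM in B6 and 1329.7, 1459 and 1466 CPM in BALB/c. The strains did not overlap, and the gap between the lowest B6 and the highest BALB/c library was smaller than the range among the B6 mice. The log2 fold was -0.41 ± 0.10 (SE, limma adjusted p = 0.00630). Without BALB/c replicate 1 the adjusted p was 0.0818. Of the 3′ end words of Actb, 7.84% also occur in Lrrc58.

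Actg1, the gamma-actin gene (chromosome 11, 120345690 to 120348542), had 378, 395 and 291 CPM in B6 and 244, 246 and 287 CPM in BALB/c. Its groups nearly touched, since B6 replicate 3 lay just above BALB/c replicate 3. The log2 fold was -0.44 ± 0.11 (SE, limma adjusted p = 0.0101). It did not pass when B6 replicate 1 (adjusted p = 0.0901), BALB/c replicate 1 (0.0767) or BALB/c replicate 2 (0.0581) was left out.

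Tagln2, which encodes the non-muscle relative of the actin-binding protein transgelin (chromosome 1, 172500047 to 172507380), had 187, 222 and 181 CPM in B6 and 129.7, 150.1 and 162 CPM in BALB/c. All B6 libraries were above all BALB/c libraries. The log2 fold was -0.42 ± 0.11 (SE, limma adjusted p = 0.0159), and it did not pass when B6 replicate 2 (0.0698) or BALB/c replicate 1 (0.133) was left out. Flna, the gene of filamin A, which crosslinks actin filaments and ties them to membrane proteins (chromosome X, 74223461 to 74249820), had 43.5, 46.7 and 45.8 CPM in B6 and 28.4, 32.1 and 29.3 CPM in BALB/c. Replicates lay close together in both strains, with SDs of 1.64 and 1.91 CPM. The log2 fold was -0.58 ± 0.15 (SE, limma adjusted p = 0.0107), and the call held with any 1 library left out, at an adjusted p of up to 0.0491.

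Myosin and its partners in the same group were not called. Myh9, the main non-muscle myosin II heavy chain, had means of 219 ± 23.0 (B6) and 208 ± 13.9 CPM (BALB/c; SD, n = 3), and its relative Myh10 had 79.9 ± 20.8 and 78.2 ± 7.09. The 95% interval of the log2 fold ran from -0.28 to 0.14 for Myh9 and from -0.31 to 0.30 for Myh10. Myl6, the essential light chain of these myosins, had the only positive fold of the group (0.14, limma adjusted p = 0.454). Tpm3, another cytoplasmic tropomyosin, had a fold of -0.06 (0.831), with 49% of its 3′ end words shared with Tpm3-rs7. Gsn, which severs actin filaments, had -0.27 (0.314), and its B6 libraries spread from 83.4 to 146 CPM. Vcl, the focal adhesion protein vinculin, had -0.02 (0.969), but its whole 3′ end overlaps Ap3m1 on the opposite strand, and the sources used here do not say whether counting used strand.

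Tmsb4x was the one abundant member that was higher in BALB/c. Thymosin beta-4, its product, binds actin monomers and keeps them out of filaments. Its level (chromosome X, 167207093 to 167209315) was 1110.3, 1019 and 1099 CPM in B6 and 1386, 1322 and 1375 CPM in BALB/c. Each BALB/c library exceeded each B6 library by more than the range within either strain. The log2 fold was 0.34 ± 0.09 (SE, limma adjusted p = 0.0119), and the adjusted p was 0.0870 without BALB/c replicate 1. Tmsb10, its paralog, had 42.2 ± 5.98 and 49.2 ± 6.26 CPM (SD, n = 3) and was not called (fold 0.22, 95% interval -0.09 to 0.52). Of its 3′ end words 76.5% also occur in Gm9844.

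**Figure D2:**
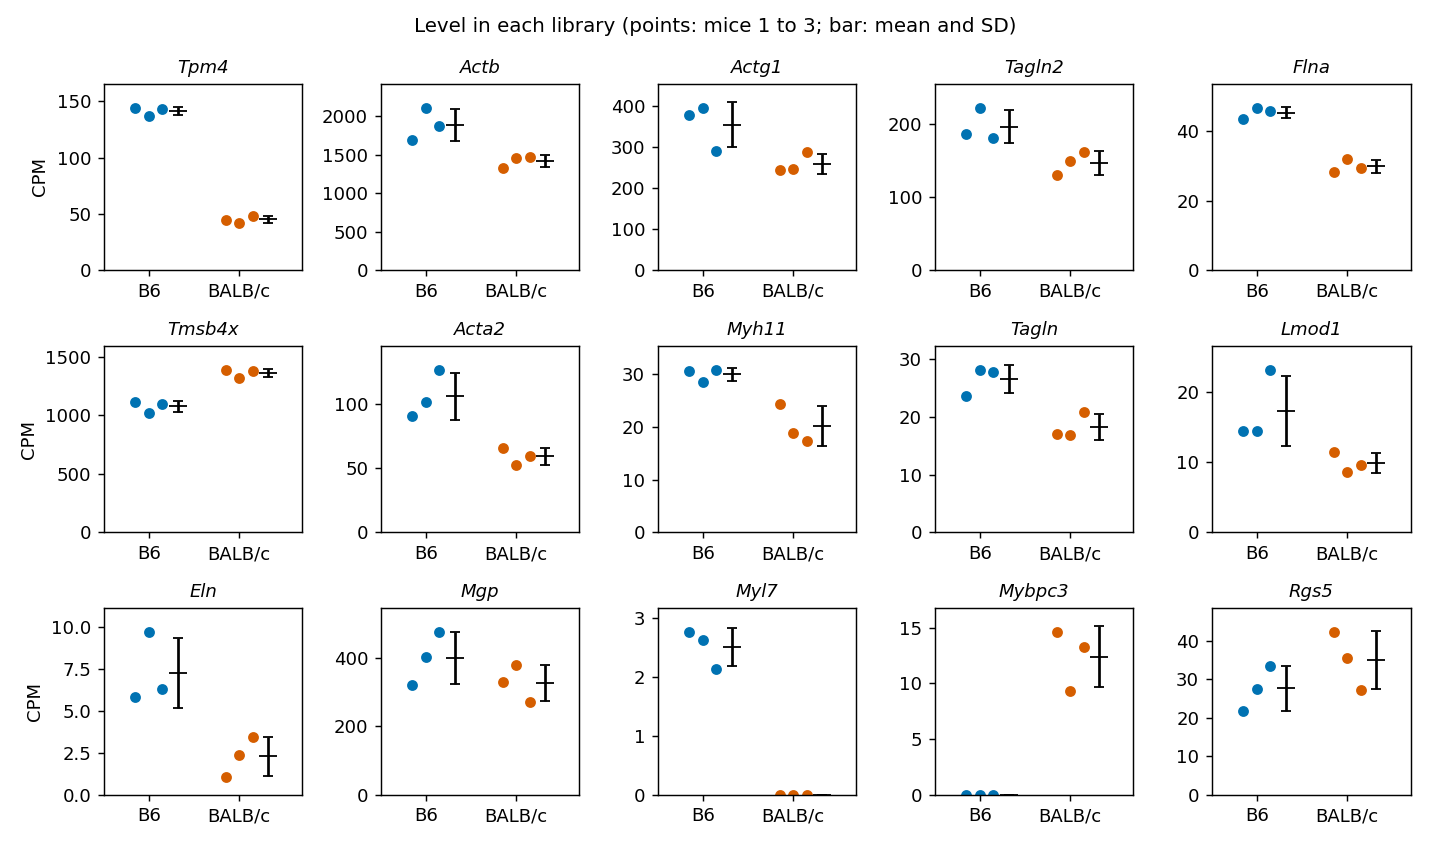
CPM (y axes, each from 0) of 15 members in each of the 3 B6 and 3 BALB/c libraries, with the mean and SD beside the points. Tpm4, Flna, Tmsb4x, Myl7 and Mybpc3 separate the strains by wide gaps, while Mgp and Rgs5 overlap.

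Isoform shares were compared within families as a description, with no test. The 4 tropomyosin genes summed to 438, 459.7 and 410.4 CPM in B6 and 313, 309 and 298 CPM in BALB/c. Tpm4 took 32.9%, 29.7% and 34.9% of that sum in B6 and 14.4%, 13.7% and 16.3% in BALB/c. The share of Tpm1 was 34.6% ± 2.50 (B6) and 41.7% ± 3.25 (BALB/c; SD, n = 3), and that of Tpm3 was 27.8% ± 0.751 and 38.1% ± 2.04. In CPM, the means of Tpm1 and Tpm3 were not higher in BALB/c (151 ± 19.4 and 128 ± 13.0 for Tpm1, 121 ± 10.1 and 117 ± 3.62 for Tpm3). The 4 actin genes summed to 2352 ± 228 CPM in B6 and 1736 ± 88.5 in BALB/c, of which Actb took 80.3% ± 1.80 and 81.7% ± 1.20, and Acta2 4.52% ± 0.858 and 3.41% ± 0.537. The 3 myosin II heavy chains summed to 329 ± 41.5 and 306 ± 17.3 CPM, of which Myh11 took 9.24% ± 1.44 and 6.61% ± 1.25. Values are per gene symbol, so splice forms of Tpm1 or Tpm3 cannot be told apart here.

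**Figure D3:**
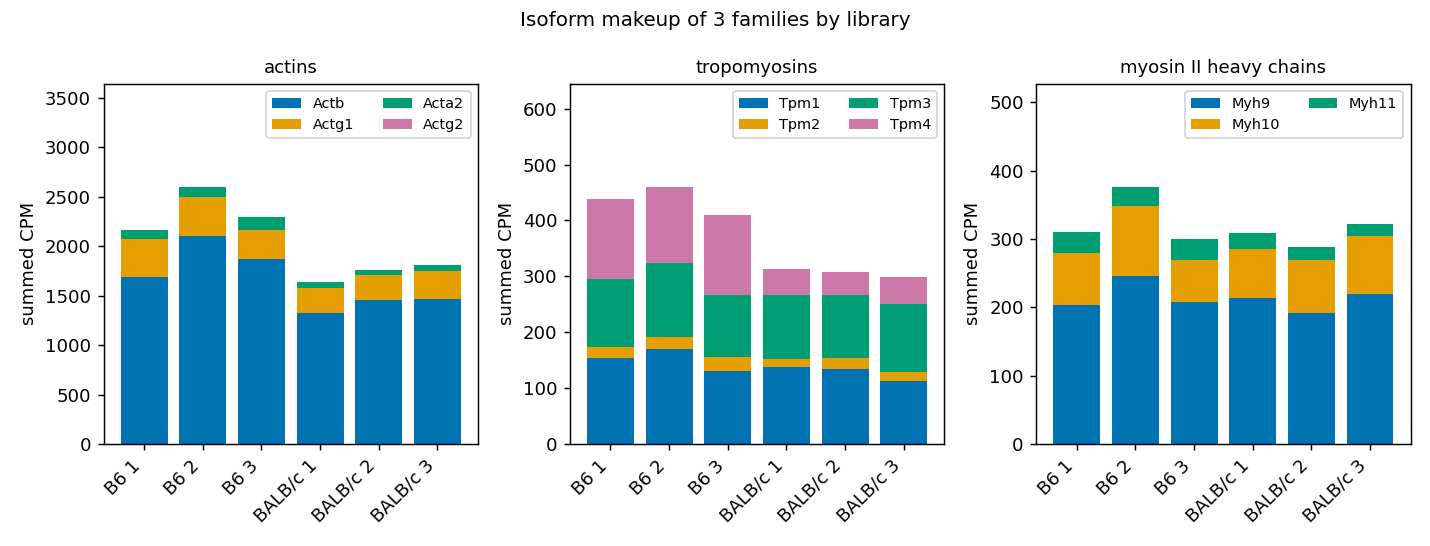
Summed CPM (y axes from 0) of the actin, tropomyosin and myosin II heavy chain genes in each library, divided by gene. The Tpm4 segment is much shorter in the 3 BALB/c libraries, and the actin columns are shorter there with nearly the same makeup.

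Of the 11 tested contractile genes of smooth muscle, 1 was called, Acta2, lower in BALB/c, which is the same share (9.09%) as of all tested genes. All 11 folds were negative, with a median of -0.40. The strains did not overlap in 5 of them, all lower in BALB/c (45.5%), where 12.9% of all tested genes were lower with no overlap. Acta2 encodes smooth muscle alpha-actin (chromosome 19, 34241090 to 34255590). Its level was 90.1, 101 and 126 CPM in B6 and 65.7, 52.1 and 59.2 CPM in BALB/c. Even the highest BALB/c library was below the lowest B6 library. The means were 106 ± 18.4 and 59.0 ± 6.80 CPM (SD, n = 3), 1.79-fold lower in BALB/c, and the log2 fold was -0.82 ± 0.13 (SE, limma adjusted p = 1.66e-04). Leaving out any 1 library kept the call, at an adjusted p of up to 0.00239.

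Another 4 contractile genes had no overlap between the strains and missed the threshold: Myh11, Lmod1, Tagln and Tpm2. Myh11, the heavy chain of smooth muscle myosin, had 30.6, 28.6 and 30.8 CPM in B6 and 24.4, 18.9 and 17.3 CPM in BALB/c. Its log2 fold was -0.56 ± 0.18 (SE, limma adjusted p = 0.0505), and the adjusted p was under the threshold with a filter of a mean of 5 CPM (0.0464), with a robust variance prior (0.0470) and without BALB/c replicate 1 (0.0316). Lmod1, the gene of leiomodin-1, which starts actin filaments in smooth muscle, had 14.5, 14.4 and 23.1 CPM in B6 and 11.5, 8.61 and 9.62 CPM in BALB/c (fold -0.73, adjusted p = 0.0623). B6 replicate 3 stood well above the other two B6 libraries, and without it the adjusted p was 0.296. Tagln, the smooth muscle marker transgelin or SM22, had 23.7, 28.1 and 27.7 CPM in B6 and 17.1, 16.9 and 20.9 CPM in BALB/c (fold -0.51, adjusted p = 0.0873), and 23.5% of its 3′ end words lie in Pcsk7 on the opposite strand. Tpm2, a muscle tropomyosin, had 19.7, 21.8 and 24.7 CPM in B6 and 14.4, 19.3 and 15.7 CPM in BALB/c (fold -0.40, adjusted p = 0.242). Its groups nearly touched.

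The other tested contractile genes were not called, and their strains overlapped. Cald1, caldesmon, which restrains myosin on the thin filament, was the most abundant gene of this group. Its level was 274, 263 and 305 CPM in B6 and 287, 297 and 250.3 CPM in BALB/c, with full overlap and a fold of -0.01 (95% interval -0.21 to 0.19, limma adjusted p = 0.967). Mylk, the kinase that switches smooth muscle myosin on, had 252 ± 35.6 and 249 ± 24.8 CPM (SD, n = 3), with an interval from -0.24 to 0.21. Myl9, the regulatory light chain it acts on, had a fold of -0.11 (-0.38 to 0.16). Both Cald1 and Mylk are known to be transcribed outside smooth muscle too, and the source of their reads was not tested. Exons of Mylk overlap the antisense genes E130310I04Rik and Gm21691. Tpm1 had a fold of -0.24, Cnn1, the thin filament protein calponin, -0.42, and Des, the intermediate filament protein desmin, -0.10 (adjusted p = 0.233, 0.551 and 0.881). Of Des, 41.2% of the 3′ end words lie in the antisense gene Gm15179. Actg2 had 7 reads over the B6 libraries and 0 over the BALB/c libraries, which allows up to 0.315 CPM there on average (3 reads per library, counting error only), so no fold is given.

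**Figure D4:**
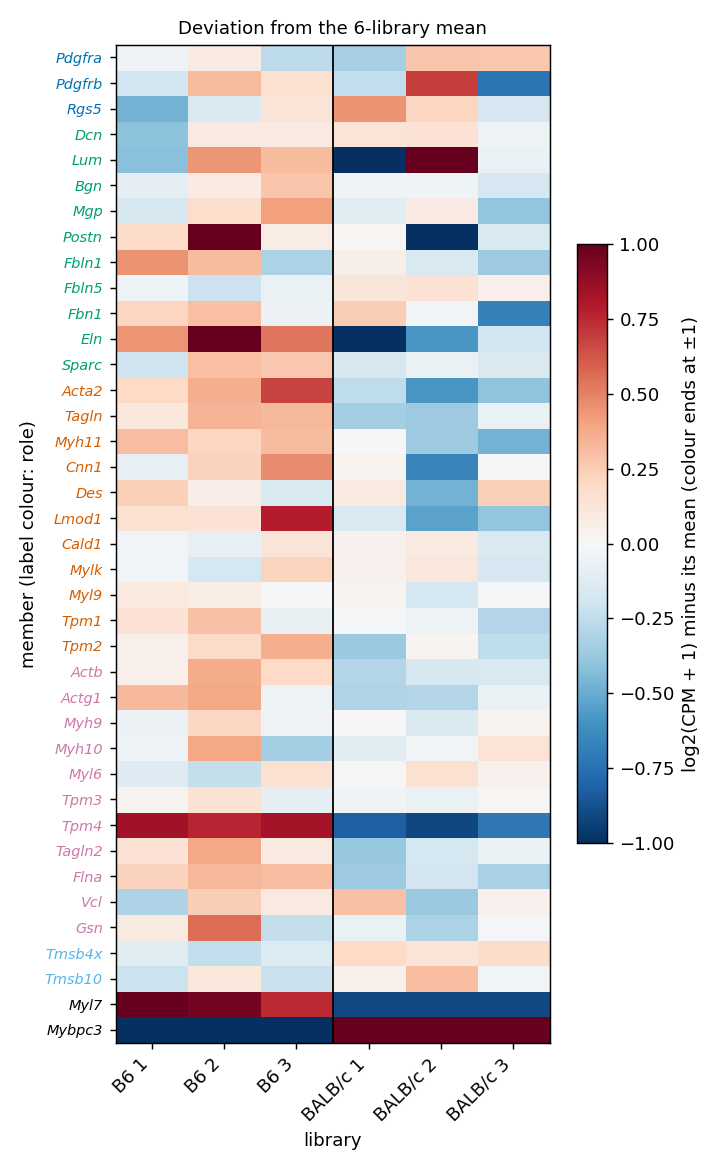
Log2(CPM + 1) of each tested member in each library, minus its mean over the 6 libraries (colour scale ends at ±1); gene names are coloured by role. Acta2, Tagln, Myh11 and Lmod1 are above their mean in all 3 B6 libraries, and Tpm4, Myl7 and Mybpc3 have the strongest contrast.

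Of the 10 matrix genes, 1 was called, Eln, lower in BALB/c, a share near the 9.09% of all tested genes. The median fold of the group was -0.26, with 8 negative and 2 positive folds. Eln encodes elastin, the recoiling protein of arterial walls (chromosome 5, 134702593 to 134747323). Its level was 5.84, 9.67 and 6.28 CPM in B6 and 1.06, 2.36 and 3.41 CPM in BALB/c. The strains did not overlap, though both spread widely at these low levels. The log2 fold was -1.37 ± 0.35 (SE, limma adjusted p = 0.0132), and it did not pass with B6 replicate 2 (0.0775) or BALB/c replicate 1 (0.0818) left out. An exon of Eln overlaps the antisense gene Gm30003.

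Mgp, matrix Gla protein, an inhibitor of calcification in vessel walls, was the most abundant matrix gene. Its level was 321, 405 and 476 CPM in B6 and 331, 379.6 and 273 CPM in BALB/c, which overlapped (fold -0.28, limma adjusted p = 0.186). Postn, the matricellular protein periostin, had 1.54, 3.53 and 1.35 CPM in B6 and 1.26, 0 and 1.0 CPM in BALB/c. Its fold of -0.86 had an interval from -1.76 to 0.04 and did not pass (adjusted p = 0.261). Sparc, a collagen-binding matrix protein, had 232 ± 42.3 and 193 ± 7.06 CPM (SD, n = 3) and a fold of -0.25 (adjusted p = 0.210), which passed only without B6 replicate 1 (fold -0.41, adjusted p = 0.0285). The small proteoglycan genes Dcn and Bgn, which bind collagen fibrils, had folds of 0.15 and -0.17 (adjusted p = 0.528 and 0.389). Dcn had 126 ± 23.5 and 138 ± 10.5 CPM, and Bgn had 158 ± 20.7 and 139 ± 6.67. Their relative Lum was read at up to 4.25 CPM, with 0 in BALB/c replicate 1 and the highest value in BALB/c replicate 2. Fbln5, a fibulin needed to assemble elastic fibres, had a positive fold of 0.21 with no overlap (73.6 ± 4.76 and 85.5 ± 2.92 CPM, adjusted p = 0.291). Fbln1 and Fbn1, the microfibril protein fibrillin-1, had folds of -0.30 and -0.31 at levels of up to 10.2 CPM (adjusted p = 0.706 and 0.607).

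Neither platelet-derived growth factor receptor was called, nor was Rgs5. These receptors mark fibroblasts (Pdgfra) and mesangial cells and pericytes (Pdgfrb). Pdgfra had 22.2 ± 2.79 CPM in B6 and 24.9 ± 5.74 in BALB/c, and Pdgfrb had 17.1 ± 3.13 and 16.2 ± 8.88 (SD, n = 3). Pdgfrb ranged from 9.22 to 26.2 CPM within BALB/c alone, so its interval (-0.75 to 0.38) leaves room for a difference of either sign. Rgs5, a pericyte regulator of G protein signalling, had 21.8, 27.5 and 33.5 CPM in B6 and 42.2, 35.6 and 27.1 CPM in BALB/c. Its groups overlapped, and the fold was 0.33 ± 0.19 (SE, limma adjusted p = 0.332).

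Both genes of the heart muscle sarcomere were read in 1 strain only, and each in the opposite one. Mybpc3 encodes cardiac myosin-binding protein C (chromosome 2, 91118144 to 91136516). Its level was 0 in all 3 B6 libraries and 14.6, 9.32 and 13.3 CPM in BALB/c, from 79 to 151 reads per library. Against a floor of 3 reads per library in B6 it was at least 38.5-fold higher in BALB/c, and the log2 fold of 3.72 ± 0.35 (SE, limma adjusted p = 6.57e-08) depends on the pseudocount. Since Mybpc3 passed the filter only through BALB/c, that p is no independent support. None of 2 neighbours on each side was called. Spi1 had 3.58 ± 0.990 (B6) and 2.20 ± 0.539 CPM (BALB/c; SD, n = 3), Madd had 9.53 ± 1.21 and 12.0 ± 1.60, Slc39a13 had 35.7 ± 3.86 and 27.5 ± 2.61, and Nr1h3 had 45.1 ± 3.28 and 49.7 ± 3.38 (adjusted p = 0.449, 0.519, 0.184 and 0.623).

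Myl7, the atrial regulatory light chain of myosin (chromosome 11, 5896637 to 5898782), had 2.75, 2.62 and 2.13 CPM in B6 and 0 in all 3 BALB/c libraries. Its B6 level rests on 19 to 26 reads per library, 70 in all. The nearest tested neighbours were not called: Pold2 had 7.80 ± 1.97 (B6) and 6.47 ± 2.03 CPM (BALB/c), and Ykt6 had 59.7 ± 18.2 and 41.4 ± 2.08 (adjusted p = 0.699 and 0.0852). It was at least 7.94-fold lower in BALB/c against a floor of 3 reads per library (log2 fold -1.80 ± 0.40, SE, limma adjusted p = 0.00468). Myl7 passed the filter only through B6, so the same limit applies to its p. Other defining heart muscle genes were at or near 0. Nppa had no read in any library, and Myh6, Tnnt2, Tnni3 and Actc1 had at most 1.74 CPM in a library. Skeletal muscle markers summed to at most 1.65 CPM. The build named for both strains, mm10, derives from B6. Loss or misplacement of BALB/c reads on it was not tested.

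**Figure D5:**
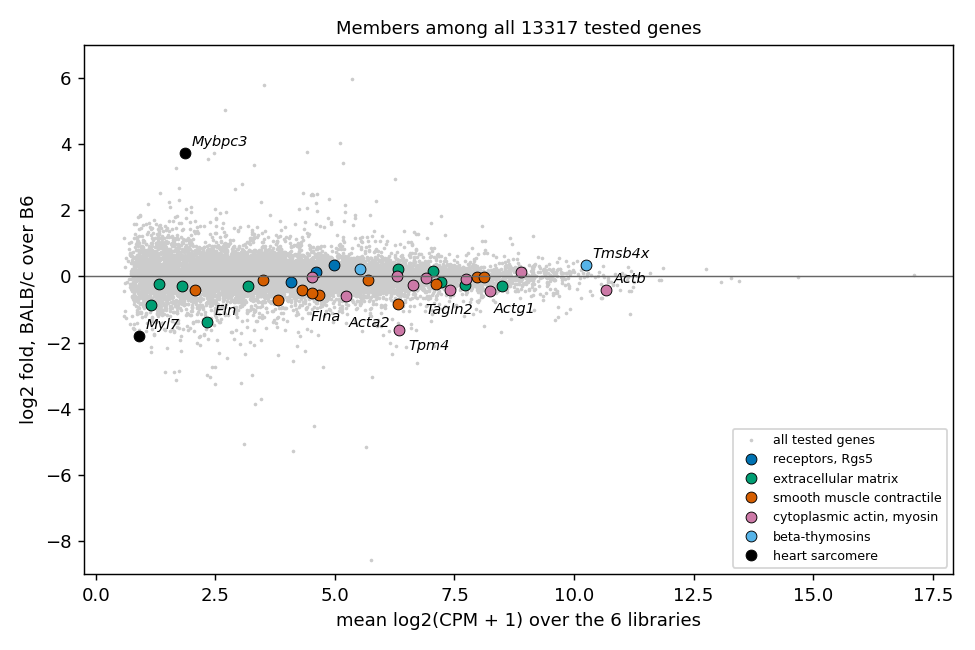
Log2 fold of BALB/c over B6 (y axis) against mean log2(CPM + 1) over the 6 libraries (x axis) for all tested genes (grey) and the 39 tested members (coloured by role; called members named). Most members lie at high levels and slightly below 0, with Mybpc3 far above and Tpm4 and Myl7 below the bulk of genes.

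Spread between mice was similar to that of other genes. Over the 27 members with a mean of at least 20 CPM, the median coefficient of variation was 12.8% in B6 and 9.07% in BALB/c, against 10.4% and 9.56% for all genes at that level. Tpm4 varied least in B6 (2.96%) and Gsn most (28.6%), while in BALB/c the extremes were Tmsb4x (2.50%) and Vcl (23.6%). B6 libraries differed among themselves by role. The median deviation of cytoskeletal genes from their 6-library mean was 0.37 on the log2 scale in B6 replicate 2, against 0.05 and 0.09 in replicates 1 and 3. For contractile genes it was highest in B6 replicate 3 (0.32) and lowest in BALB/c replicate 2 (-0.36). Among the 29 tested members that were not called, 6 had an unadjusted p under 0.05, and for 24 the 95% interval excluded a 2-fold change in either direction.

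Other genes of actin turnover and crosslinking were called at a share of 12.2%, near the 9.09% of all tested genes. Of 41 tested genes, 5 were lower in BALB/c, 0 were higher and 36 were not called. Their folds were negative for 27 and positive for 14, with a median of -0.09. The most abundant was Actn4, alpha-actinin-4, a crosslinker also needed by podocytes, with means of 661 ± 38.3 and 497 ± 34.6 CPM (SD, n = 3 each). Its fold was -0.41 ± 0.09 (SE, limma adjusted p = 0.00364). Its 3′ end overlaps Capn12 on the opposite strand. Twf1, which binds actin monomers, had -0.58, Dstn, the depolymerising factor destrin, -0.32, and Cfl2, muscle cofilin, -0.40 (adjusted p = 0.0137, 0.0305 and 0.0450). None of these 3 passed with BALB/c replicate 1 left out. The adjusted p reached 0.105 for Twf1 with that library left out, and 0.132 for Dstn and 0.222 for Cfl2 without B6 replicate 3. Dstn and Cfl2 also did not pass with the replicate block or under total or upper quartile scaling.

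Among SRF, its cofactors, signalling genes upstream of them and known targets, 2 of 21 tested genes were higher and 1 lower, with a median fold of 0.03. That is 14.3%, against 9.09% of all tested genes. Srf had 35.4 ± 11.3 (B6) and 30.7 ± 1.67 CPM (BALB/c; SD, n = 3, fold -0.15, limma adjusted p = 0.726), and its cofactor genes Mkl1 and Mkl2 had folds of 0.10 and -0.11 (0.873 and 0.836). Myocd, the cofactor of the smooth muscle programme, was under 1 CPM in every library and was not tested. The 2 higher genes were the immediate early genes Egr1 and Fos, which are SRF targets that also respond within minutes to handling of tissue. Egr1 had 10.8 ± 8.23 CPM in B6, while BALB/c had 57.3 ± 27.1 (SD, n = 3 each), with no overlap. Its fold was 2.46 ± 0.34 (SE, adjusted p = 2.55e-05), which did not pass with a robust variance prior (0.116). Fos had a fold of 1.96 (0.00517), which did not pass with B6 replicate 1 left out (0.0549). Egr1 and Fos were thus higher in BALB/c, while Acta2, Actb and Actg1 were lower. Whether SRF has a part in either was not tested. Arhgef12, a guanine nucleotide exchange factor, was lower (-0.43, adjusted p = 0.00505).

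Further smooth muscle, mesangial and matrix lists had 5.88%, 5.56%, 11.1% and 10.5% of their tested genes called, in the order below, near the 9.09% of all tested genes. Of 17 tested smooth muscle genes 1 was called, the laminin receptor subunit Itga7, lower (-0.38, limma adjusted p = 0.0449), which passed with B6 replicate 1 left out but not with any other library left out (up to 0.198), nor with the replicate block. Of 18 tested mesangial, pericyte and renin cell genes 1 was called, Itga8, the mesangial integrin subunit, and it was higher, with 6.09 ± 2.12 (B6) and 15.5 ± 3.62 CPM (BALB/c; SD, n = 3, fold 1.25, adjusted p = 0.00482). Ren1, the renin gene of juxtaglomerular cells, had 93.4 ± 22.0 and 93.3 ± 31.9 CPM. Of 18 collagen genes, 2 were lower and 0 higher, with a median fold of -0.22. Col5a2 had 15.1, 13.2 and 17.7 CPM in B6 and 3.39, 7.90 and 7.72 CPM in BALB/c (fold -1.22, adjusted p = 0.00692). Col1a2 had a fold of -0.50 (0.00542), which did not pass with BALB/c replicate 1 left out (0.0608). Of 19 tested elastic fibre and small proteoglycan genes, 2 were lower and 0 higher, with a median fold of -0.29. Matn2, a matrix adaptor protein, had 13.4 ± 0.508 and 3.11 ± 1.58 CPM (fold -1.90, adjusted p = 2.77e-04), and Ltbp4, which partners with fibulins in elastic fibres, had -0.75 (0.0388). Ltbp4 did not pass with replicate 2 or 3 of either strain left out (up to 0.151), nor with the replicate block.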

How the data were processed

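Whole kidney RNA of 3 B6 and 3 BALB/c mice was extracted with Trizol and made into 3′ end libraries with a Lexogen QuantSeq kit, per the labels' protocols. Bowtie2, bedtools and build mm10 appear in the submitters' processing notes. Tool versions, annotation, strand use and the handling of multiply aligned reads are not given in the sources read for this work. Each library has 1 deposited log2 value per gene symbol, read here as log2(CPM + 1) with a further factor per library: after back-transformation, 100% of values at or under 20 reads lay within 0.1 read of a whole number. The design had left the unit open. CPM and reads were recovered from that step, and totals and floors cover counting error only. The intervals of the folds come from limma and rest on its variance between libraries, as the p-values do.

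Genes at a log2 value of at least 1 in at least 3 libraries (13317) were tested with limma 3.58.1 in R 4.3.3, with strain as the sole term, a variance prior following the level, two-sided tests and Benjamini-Hochberg adjustment over all tested genes (called at adjusted p under 0.05). The prior contributed 18.4 degrees of freedom beside 4 residual ones, so p-values rest more on genes of like level than on a gene's own mice. The series' design text gives 3 mice per strain. Within each strain no pair of libraries matched within counting noise (chi-square over degrees of freedom 7.93 to 17.1). The fit was tested on simulated data. Alternatives were 2 other filters, 2 pseudocounts, 3 scalings, 2 variance priors, a replicate block, limma-voom on the recovered reads, and each library left out in turn. Members and gene lists were chosen with earlier results of these data known. Described with all values are called members, members with no overlap and a fold of at least 0.3 in size, and the most abundant member of each role; of other lists, up to 4 called genes with the smallest p. Cfl2, Srf, Mkl1, Mkl2, Myocd, Ren1 and the neighbouring genes were named outside that rule, after their values were seen, and 1 called gene of the actin turnover list is not reported here. Positions, exon overlaps and shared 3′ ends (words of 50 bases in the last 300 bases of a transcript) come from GENCODE M21 on GRCm38.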

Additional observations from a re-analysis of the deposited data

How the results depend on the processing

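No fold of a called member changed sign under any of the 17 alternatives in which it was tested. The count of called genes was 493 with no trend in the variance prior, where 1 member was higher and 2 were lower in BALB/c. Leaving out 1 library gave 797 to 1138 called genes, 1 to 2 higher and 5 to 8 lower members, and a median member fold between -0.27 and -0.15. The 797 came without BALB/c replicate 1, where Eln, Actb, Actg1, Tagln2 and Tmsb4x lost their calls, and 806 were called without B6 replicate 1. The replicate block gave 977 called genes, with 2 higher and 8 lower members, and changed no member's call. Libraries with the same number did not deviate together (correlations of -0.0844 to 0.0115 over tested genes). Not every library correlated best with its own number. These values show no effect shared by number, but cannot tell whether same-numbered mice were handled together. No scaling moved the median fold of all tested genes by more than 0.035. Under a mean of at least 5 CPM 33 members were tested, so Myl7, Lum, Postn, Fbln1, Cnn1 and Eln have no value there. The rarest members had wide intervals: the 95% interval of the fold was -1.24 to 0.79 for Lum and -1.76 to 0.04 for Postn. The parts of depth and of spread between mice in these widths were not separated.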
